A study of Homo sapiens with 4 samples.

Results

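The genes described here encode the protein subunits of the respiratory chain and of ATP synthase. They were chosen by symbol among protein-coding genes: the mitochondrially encoded ND, CO, CYB and ATP genes, the NDUF genes of complex I, the 4 SDH genes of complex II, the UQCR genes of complex III, the COX5 to COX8 genes of complex IV, and the ATP5 genes of ATP synthase, which is counted as complex V. The choice gave 99 of the 58735 genes in the count table, 13 of them in the mitochondrial genome and 86 in the nucleus. By symbol the nuclear genes fell into 39 for complex I, 4 for complex II, 9 for complex III, 15 for complex IV and 19 for complex V. NDUFA4 and NDUFA4L2 stand with complex I by name, although the NDUFA4 protein is a subunit of complex IV. COX4I1, COX4I2, CYC1, CYCS, NDUFAB1 and ATP5IF1 were not covered by the choice and are described separately.

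RNA-seq gene counts were compared in MDA-MB-231 and SUM159, 2 established human triple-negative breast cancer (TNBC) cell lines. Each line was treated for 72 h either with 1 µM mebendazole (MBZ), an anthelmintic benzimidazole that binds tubulin, or with DMSO, its solvent. The 4 groups, MDA-MB-231 DMSO, MDA-MB-231 MBZ, SUM159 DMSO and SUM159 MBZ, hold 1 library each, so no difference within a line has a replicate check and no p-value is given for one. The lines were grown in different media, so the line and its medium cannot be told apart. Among the markers of the labelled cell type, ESR1 had 1, 0, 2 and 18 counts in the order just given and PGR had 0 in all. ERBB2 had 1996, 1353, 1826 and 1216 counts. VIM, an intermediate filament gene of mesenchymal-like cells, lay between 560.7 and 1350 RPKM, a count scaled by transcript length and library total. Of the epithelial markers, KRT8 lay between 282.5 and 609.9 RPKM and KRT18 between 158.8 and 309.1, while EPCAM had 144, 190, 6 and 9 counts and CDH1 had 11, 12, 0 and 0. Of markers of other cells, the T cell gene CD3E had at most 1 count, the leukocyte gene PTPRC had 8, 23, 216 and 60, and the endothelial gene PECAM1 had 365, 328, 655 and 825, with VWF at 10, 19, 20 and 21. The fibroblast markers DCN and PDGFRA were at 0 in both MDA-MB-231 libraries and at 335 and 508 counts and at 1026 and 306 counts in the SUM159 libraries. Their part in the differences between the lines was not tested.

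The respiratory chain passes electrons from NADH through complex I, and from succinate through complex II, to ubiquinone, then through complex III and cytochrome c to complex IV, which reduces oxygen. Complexes I, III and IV pump protons across the inner mitochondrial membrane, and ATP synthase uses the gradient to make ATP. Complex II is made wholly from nuclear genes, whereas the others combine nuclear subunits with a few that the mitochondrial genome encodes. That genome is transcribed as long polycistronic RNAs from both strands, which are cut mostly at the tRNAs between the genes. Most of the mRNAs then receive short poly(A) tails.

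The compact layout of the mitochondrial genes bears on how their reads can be counted. MT-ATP8 and MT-ATP6 share 46 bases of one RNA, and MT-ND4L and MT-ND4 share 7. Each pair lies on one RNA, so the mRNAs named below are counted by gene. Both windows are given below from the hg38 mitochondrial sequence, forward strand, with the shared bases in capitals.
MT-ATP8 and MT-ATP6, chrM:8515-8584: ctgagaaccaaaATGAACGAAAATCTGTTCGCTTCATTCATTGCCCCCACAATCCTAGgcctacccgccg
MT-ND4L and MT-ND4, chrM:10748-10778: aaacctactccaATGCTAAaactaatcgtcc
Reads that touch 2 genes were left out of the deposited counts, so those of MT-ATP8, of whose 207 bases 22.22% are shared, are less sure than the others. In 6 of the 13 mRNAs the annotated gene ends in T or TA, and the stop codon is completed by the poly(A) tail, by which these mRNAs were also captured on oligo-dT beads. The last 15 bases of 2 of them are shown with the bases of the unfinished stop codon in capitals.
MT-ND1, end of the gene: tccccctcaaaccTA
MT-CYB, end of the gene: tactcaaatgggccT

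Total counts ranged from 17143139 to 24897586 per library. Fold changes were computed as MBZ over DMSO within a line after trimmed-mean (TMM) scaling. Each has a 95% counting interval (Clopper-Pearson) that covers counting error and not the spread between cultures. Genes averaging 10 or more counts over the pair of libraries were compared, and called from 1.5-fold up. By this rule MBZ came with 18.3% of all genes called higher and 15.8% called lower in MDA-MB-231, and 21.5% were higher and 21.7% lower in SUM159. Among the subunit genes, 2 of 91 were called higher and 4 lower in MDA-MB-231, and 15 of 92 were called higher and 1 lower in SUM159. As shares these are 2.198%, 4.396%, 16.3% and 1.087%, each below that of genes at large on this scaling. Scaling by total counts in place of TMM raised every log2 fold change by 0.27 in MDA-MB-231 and by 0.30 in SUM159. The subunit genes called higher then numbered 6 in MDA-MB-231 and 30 in SUM159, with 0 lower in each, where 29.1% and 32.8% of all genes were called higher and 7.57% and 12.8% lower. A direction smaller than that depends on the scaling, whereas differences between genes of the same comparison do not.

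Per transcript length, the mitochondrial mRNAs were far more abundant than the nuclear ones. In MDA-MB-231 DMSO their median level was 1748 RPKM, against 63.91 RPKM for the nuclear subunit genes with at least 10 counts. In SUM159 DMSO these medians were 1752 and 63.94 RPKM. In both DMSO libraries the 3 mitochondrially encoded core subunits of complex IV led: MT-CO2 was highest in MDA-MB-231 DMSO at 4240 RPKM, and MT-CO1 was highest in SUM159 DMSO at 6930 RPKM. MT-ATP8 had the lowest value in all 4 libraries, between 333.6 and 409.9 RPKM. It lies on one RNA with MT-ATP6 and loses reads that touch both genes, so this value is no level of a separate mRNA. Among nuclear subunits, ATP5F1B, which encodes the catalytic beta subunit of ATP synthase, was the highest in every library, between 520.8 and 751.2 RPKM.

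**Figure D1:**
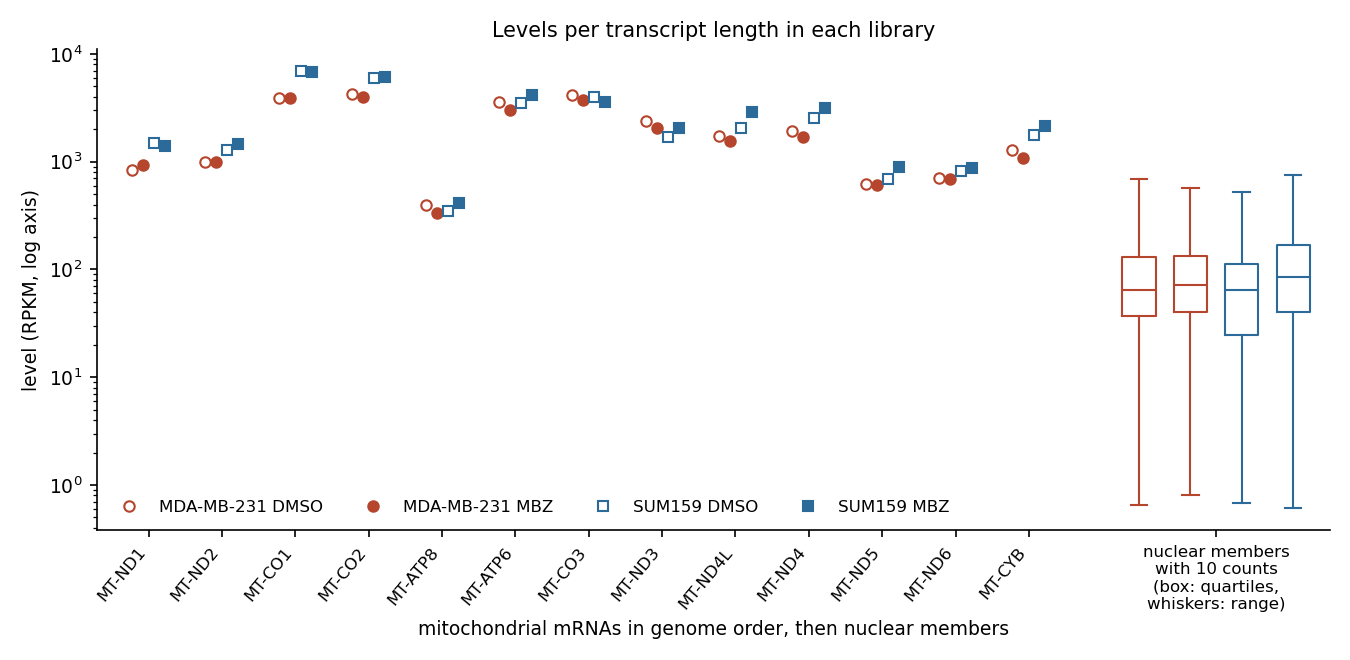
Level of each mitochondrial mRNA in the 4 libraries (points, 1 library each) and of the nuclear subunit genes with at least 10 counts (boxes with quartiles, whiskers to the lowest and highest gene), in RPKM on a log axis. The mitochondrial genes lie above the median of the nuclear genes in every library. The lowest value is that of MT-ATP8, which lies on one RNA with MT-ATP6.

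The 13 mitochondrial mRNAs took 2.351% of all counts in MDA-MB-231 DMSO and 2.204% in MDA-MB-231 MBZ. In SUM159 they took 3.151% with DMSO and 3.36% with MBZ. On the TMM scale their summed level was lower after MBZ in both lines, by -0.36 on the log2 scale (95% interval from counting error, -0.36 to -0.35) in MDA-MB-231 and -0.21 (-0.21 to -0.20) in SUM159. The share of all counts and the TMM value thus pointed in opposite directions in SUM159. None of the 13 reached 1.5-fold in either line. Nuclear copies of the mitochondrial genome took 0.01274% to 0.01769% of the counts, of which reads could be shared with the mitochondrial genes. In bulk RNA, less of an RNA in every cell and fewer cells that hold it cannot be told apart.

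In MDA-MB-231 all 13 mRNAs were lower after MBZ on the TMM scale, with intervals that excluded 0 and a median log2 fold change of -0.41. With total-count scaling, MT-ND1 and MT-CO1 were above 0. MT-CO1 had 149491 counts with DMSO and 104170 with MBZ, a log2 fold change of -0.25 (-0.26 to -0.24). MT-CYB, the only mitochondrially encoded subunit of complex III, had 36487 and 21371 counts, a log2 fold change of -0.50 (-0.52 to -0.47). The 2 subunits of ATP synthase were the lowest, at -0.52 for MT-ATP8 and -0.51 for MT-ATP6, and MT-ND1 of complex I was nearest to 0, at -0.12 (-0.15 to -0.09).

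In SUM159 the pattern across the genes was different. MT-CO3, MT-ND1 and MT-CO1 were the lowest, at -0.44, -0.38 and -0.34, whereas MT-ND4L, a membrane subunit of complex I, had 11488 counts with DMSO and 16240 with MBZ, a log2 fold change of 0.18 (0.15 to 0.22). MT-ND5 was also above 0, at 0.06 (0.04 to 0.08), and 10 of the 13 genes were below 0. With total-count scaling the split was the reverse, 10 above 0 and 3 below. MT-ND6, the only mRNA read from the other strand, had log2 fold changes of -0.30 (-0.35 to -0.26) in MDA-MB-231 and -0.19 (-0.24 to -0.15) in SUM159. The strand setting of the counts is not given, so RNA of the opposite strand over MT-ND6 cannot be told apart from its mRNA.

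The remaining mRNAs lay between these. In MDA-MB-231, MT-ND2 was at -0.27, MT-CO2 at -0.36, MT-CO3 at -0.41, MT-ND3 at -0.48, MT-ND4 and MT-ND4L at -0.44 and MT-ND5 at -0.29. In SUM159, MT-ND2 was at -0.11, MT-CO2 at -0.27, MT-ATP8 at -0.08, MT-ATP6 at -0.05, and MT-ND3 and MT-CYB at -0.02. MT-ND4, which lies on one RNA with MT-ND4L, was at 0.01 (-0.0031 to 0.03).

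The 12 mRNAs of the same strand could be set in their order along the genome, which no scaling changes. From MT-ND1 to MT-CYB, the correlation of this order with the log2 fold change was r = -0.595 (Spearman's rho = -0.51) in MDA-MB-231 and r = 0.644 (rho = 0.769) in SUM159. These are descriptions over 12 genes that share a transcript and libraries. MT-ATP8 with MT-ATP6, and MT-ND4L with MT-ND4, also lie on one mRNA, so the values are per gene. The 2 ribosomal RNAs, which precede the mRNAs on that strand and are no protein subunits, differed most between the lines among the mitochondrial genes shown. MT-RNR1 had 8300 and 11251 counts in MDA-MB-231, a log2 fold change of 0.71 (0.67 to 0.75), and 13275 and 14418 counts in SUM159, a log2 fold change of -0.20 (-0.23 to -0.16). MT-RNR2 had 70810 and 80266 counts in MDA-MB-231 (0.45) and 146699 and 120719 in SUM159 (-0.60). The MT-RNR1 value in SUM159 was 0.10 with total-count scaling, while MT-RNR2 was lower on either scale. The ribosomal RNAs reach a poly(A)-selected library only in part, so their counts are not their amounts.

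**Figure D2:**
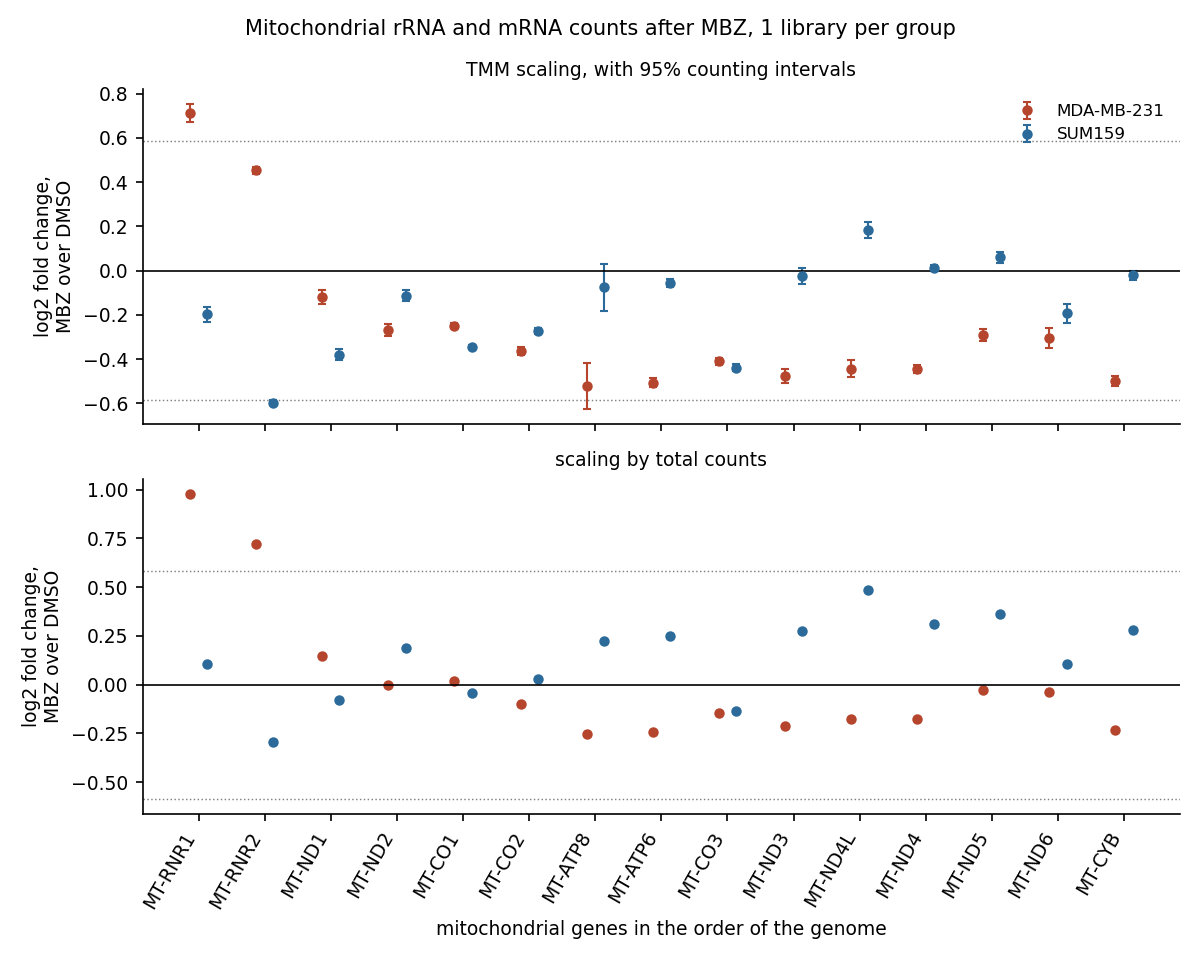
Log2 fold change of MBZ over DMSO for the mitochondrial rRNAs and mRNAs in genome order, with TMM scaling and 95% counting intervals (top) and with scaling by total counts (bottom), 1 library per group, with dotted lines at 1.5-fold. The ribosomal RNAs are higher in MDA-MB-231, the mRNAs on the TMM scale are all below 0 in that line, and in SUM159 the later genes sit above MT-ND1, MT-CO1 and MT-CO3.

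The nuclear subunit genes were lower on the whole in MDA-MB-231 and slightly higher in SUM159 after MBZ. In MDA-MB-231, 78 of the 86 averaged 10 counts or more, and their median log2 fold change was -0.19, with 56 below 0. In SUM159, 79 were compared, with a median of 0.10 and 49 above 0. The medians of all genes compared were -0.02 and -0.03. With total-count scaling the nuclear medians were 0.08 and 0.40, and 28 genes in MDA-MB-231 and 19 in SUM159 changed sign.
By complex, the medians in MDA-MB-231 were -0.22 for I, -0.04 for II, -0.23 for III, -0.16 for IV and -0.17 for V. Those in SUM159 were 0.14, -0.07, 0.08, 0.07 and -0.0038 in the same order. Over the 10 nuclear complex IV genes compared in both lines, which leaves out COX6B2 with 20 and 18 counts, the SUM159 median was 0.25. Most single genes of every complex thus stayed within 1.5-fold. The 186 pseudogenes named after subunit genes held 0.3851% to 0.6592% as many counts as the nuclear subunit genes. Over the 73 nuclear subunit genes averaging 100 counts or more, the SUM159 log2 fold change ran with log2 transcript length at r = -0.388 (Spearman's rho = -0.401), and the MDA-MB-231 one at r = 0.029. Over all 10679 nuclear protein-coding genes at that level these were r = -0.109 (rho = -0.15) and r = 0.061. These are descriptions across genes of the same libraries, and the part of length in the SUM159 values was not tested.

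**Figure D3:**
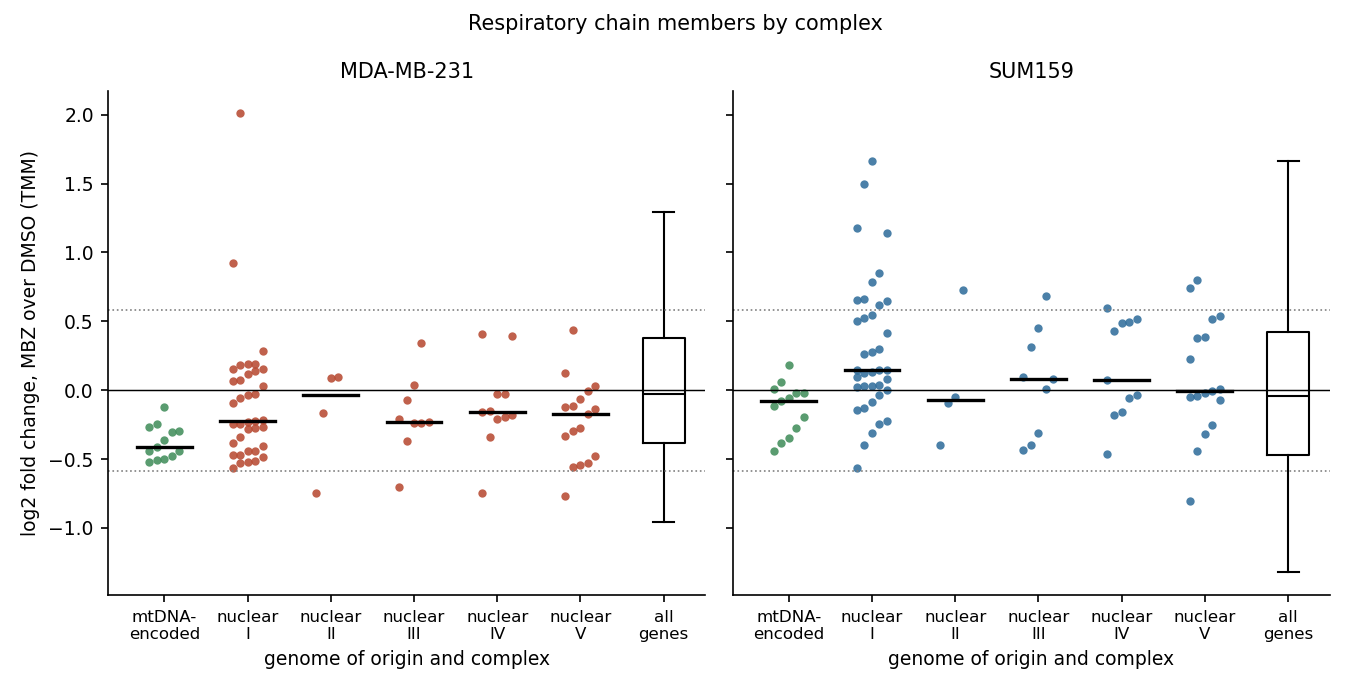
Log2 fold change of MBZ over DMSO (TMM) of each subunit gene compared, by genome of origin and complex, in each line, with black bars at the medians, dotted lines at 1.5-fold and, at the right, all genes compared in both lines (box with quartiles, whiskers at the 5th and 95th percentile). The genes of complex I spread above the upper line in SUM159, 10 of them, while the mitochondrially encoded genes stay within both lines.

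Complex I has the most members, and 10 of its 38 nuclear genes compared in SUM159 were at least 1.5-fold higher after MBZ, 26.32% against 21.5% of all genes, with none lower. In MDA-MB-231, 2 of 37 were higher, NDUFV2 and NDUFA13. In SUM159, NDUFB6, a subunit of the distal membrane arm, had 553 counts with DMSO and 1187 with MBZ (1.724-fold higher), while in MDA-MB-231 it had 1468 and 1167 (log2 fold change -0.06, -0.17 to 0.05). NDUFB3 of the same arm had 334 and 659 counts in SUM159, a log2 fold change of 0.66 (0.47 to 0.86), and 521 and 481 in MDA-MB-231, a log2 fold change of 0.16. NDUFS6, which lies by the NADH-oxidising module, had 2052 and 3919 counts in SUM159, a log2 fold change of 0.62 (0.54 to 0.69), and 2095 and 1495 in MDA-MB-231, a log2 fold change of -0.21. NDUFA3 and NDUFA6 were the other genes with over 100 counts and little overlap with a neighbour that were called, at 0.65 each.

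Core subunits of complex I carry its cofactors and the quinone site. Of these, NDUFV2 was called higher in both lines, with few counts. NDUFS1, an iron-sulphur subunit, had 3343 and 2332 counts in MDA-MB-231 and 2048 and 2150 in SUM159, log2 fold changes of -0.25 in each line. NDUFV1, which binds NADH and FMN, was at -0.24 and -0.15. NDUFS3, of the quinone-reducing module, was at -0.38 in MDA-MB-231 and at 0.03 in SUM159. NDUFS7 and NDUFS8 were at -0.48 and -0.40 in MDA-MB-231 and at 0.14 and 0.13 in SUM159. None of these 5 was called in either line. The lowest nuclear gene of complex I in MDA-MB-231 was NDUFA9, at -0.56 (-0.81 to -0.33), and NDUFB11 was at -0.52. NDUFA7 lay between them, at -0.53 (-1.99 to 0.82) with 14 and 8 counts. It passed the count minimum there through its DMSO library alone. The lowest in SUM159 were NDUFC2, at -0.56 (-0.81 to -0.32), and NDUFA10, at -0.40.

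Several complex I genes overlap another gene on the same strand, and the counts of those are unsure, since reads that touch both genes were left out. At least 50% of the transcript is shared in this way in NDUFV2, NDUFA13, NDUFA7, NDUFB8, NDUFA11 and, in complex V, ATP5PO. The same holds for the readthrough genes NDUFC2-KCTD14 and ATP5MF-PTCD1, which had 0 to 5 counts per library and are left out of the medians that follow. The median level of the 6 genes was 9.277 RPKM in MDA-MB-231 DMSO, against 63.91 RPKM for the other 78 nuclear genes. Smaller shared parts, such as 35.43% in COX8A, 32.59% in COX6A1 and 37.25% in ATP5MF, bring the same limit to those counts. NDUFV2, whose protein is an iron-sulphur subunit of the NADH-oxidising module, had only 14 and 47 counts in MDA-MB-231 and 23 and 81 in SUM159, log2 fold changes of 2.01 (1.13 to 2.996) and 1.4955 (0.82 to 2.24). NDUFA13 had 47 and 74 counts in MDA-MB-231 and 17 and 48 in SUM159. NDUFA7 went from 6 to 24 counts in SUM159 and passed the count minimum there through its MBZ library alone. Of the 10 complex I genes called in SUM159, these 3 and NDUFB8, with 84 and 189 counts, belong to the overlapping genes, and NDUFA4L2 had under 100 counts. Of the 73 nuclear subunit genes averaging 100 counts or more, 11 were called higher in SUM159. This is a larger share than the 12.8% of protein-coding genes at that level. In MDA-MB-231, 0 were called higher, against 9.56% of protein-coding genes at that level. In MDA-MB-231 and SUM159, 4 and 1 were called lower, where 15.6% and 20.8% were.
NDUFA4L2, a paralogue of NDUFA4 known to be induced by hypoxia-inducible factor, had 2 and 13 counts in MDA-MB-231, a log2 ratio of 2.97 (0.83 to 6.16), and 20 and 55 in SUM159, a log2 fold change of 1.14 (0.38 to 1.96). NDUFA4 itself was at 0.14 and 0.28. NDUFA4L2 was at most 1.269% of the summed counts of the pair with NDUFA4, in SUM159 MBZ.

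In complex II, succinate dehydrogenase, SDHA was lower in both lines, past 1.5-fold in MDA-MB-231, and SDHB was higher in SUM159. SDHA, the flavoprotein that oxidises succinate (chr5:218303-257082, plus strand, 15 exons, in GENCODE 44 on GRCh38, as all gene positions here), had 5535 counts in MDA-MB-231 DMSO and 2736 in MDA-MB-231 MBZ, 1.675-fold lower (log2 fold change -0.74, -0.81 to -0.68). In SUM159 it had 6874 and 6510 counts (-0.39, -0.44 to -0.35). With total-count scaling it was at -0.48 and -0.09, short of 1.5-fold in both. SDHB, the iron-sulphur subunit (chr1:17018664-17054032, minus strand, 8 exons), had 1515 and 1336 counts in MDA-MB-231 (0.09, -0.02 to 0.20) and 1202 and 2483 in SUM159, 1.659-fold higher (0.73, 0.63 to 0.83). SDHA was thus the lowest of the 4 genes in both lines, and its share of their summed counts was smaller with MBZ in each line, 35.2% against 46.99% in MDA-MB-231 and 53.99% against 64.35% in SUM159. The membrane anchors SDHC and SDHD were not called in either line, with log2 fold changes between -0.17 and 0.09. Reads of SDHA can be shared with its unprocessed pseudogenes, of which SDHAP1 had 356, 330, 194 and 464 counts in the 4 libraries.
The RefSeq promoter windows of the pair are shown because SDHA and SDHB belong to one enzyme and differed in opposite directions in SUM159. Each spans 300 bases around the start of the gene in GRCh38.p14 and is written in the direction of transcription. Capitals mark matches on either strand to the palindromic core bound by NRF1, to the ETS core bound by GABPA (CCGGAAG), to YY1 (AAGATGGC) or to a TATA box (TATAAA), which are factors and an element known from promoters of respiratory chain genes and of genes at large.
SDHA promoter, chr5:218070-218369, plus strand: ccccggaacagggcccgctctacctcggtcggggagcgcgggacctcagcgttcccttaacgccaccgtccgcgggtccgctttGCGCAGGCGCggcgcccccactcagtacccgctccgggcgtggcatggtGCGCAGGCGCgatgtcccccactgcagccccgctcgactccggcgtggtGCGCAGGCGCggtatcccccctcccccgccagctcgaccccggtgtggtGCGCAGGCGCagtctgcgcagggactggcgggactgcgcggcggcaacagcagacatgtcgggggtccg
SDHB promoter, chr1:17053983-17054282, minus strand: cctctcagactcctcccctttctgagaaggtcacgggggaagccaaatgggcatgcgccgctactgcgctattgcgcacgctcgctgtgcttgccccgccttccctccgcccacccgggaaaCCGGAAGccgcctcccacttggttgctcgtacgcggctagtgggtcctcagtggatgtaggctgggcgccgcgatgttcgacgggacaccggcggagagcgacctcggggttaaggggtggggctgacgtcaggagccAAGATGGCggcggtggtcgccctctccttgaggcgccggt
SDHA had 4 matches to NRF1 and none to the others, and SDHB had 1 to the ETS core and 1 to YY1.

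In complex III, UQCRC1, a core subunit, was the only gene called in MDA-MB-231, and UQCRQ, a small subunit next to cytochrome b, the only one called in SUM159. With total-count scaling UQCRC1 was short of 1.5-fold (-0.44) and UQCRB past it (0.61) in MDA-MB-231, and UQCR10 (0.75) and UQCR11 (0.61) passed it in SUM159 beside UQCRQ (0.98). UQCRC1 (chr3:48599002-48610976) had 5796 and 2951 counts in MDA-MB-231, 1.626-fold lower (-0.70, -0.77 to -0.64), and 4360 and 5808 in SUM159 (0.10, 0.04 to 0.15). UQCRQ (chr5:132866630-132868847) had 4061 and 2865 counts in MDA-MB-231 (-0.23, -0.30 to -0.16) and 1799 and 3594 in SUM159, 1.604-fold higher (0.68, 0.60 to 0.76). UQCRB, which binds ubiquinone with cytochrome b, went the other way, at 0.34 (0.26 to 0.42) in MDA-MB-231 and -0.31 (-0.39 to -0.22) in SUM159. The Rieske iron-sulphur protein UQCRFS1 was at -0.24 and 0.01, and UQCRC2, the other core subunit, at -0.21 and -0.44, the lowest of the complex in SUM159. UQCR10 was next to UQCRQ in SUM159, at 0.45, and UQCR11 next to UQCRB in MDA-MB-231, at 0.04 (-0.12 to 0.20). UQCRHL, an intronless near-copy of UQCRH, had 25 to 53 counts per library, at most 1.79% of the pair, with log2 fold changes of -0.37 (-1.15 to 0.39) and -0.40 (-0.99 to 0.18), and reads of the pair may be split between them.

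In complex IV, COX8A was lower in MDA-MB-231 and COX6C higher in SUM159. COX8A, the ubiquitous form of the smallest subunit (chr11:63974620-63976543), had 4000 and 1973 counts in MDA-MB-231, 1.678-fold lower (-0.75, -0.83 to -0.67), and 1196 and 2005 in SUM159 (0.43, 0.33 to 0.53). With total-count scaling it was at -0.48 in MDA-MB-231, short of 1.5-fold, and at 0.73 in SUM159, past it. COX6C had 1730 and 1884 counts in MDA-MB-231 (0.40, 0.30 to 0.49) and 741 and 1393 in SUM159 (0.59, 0.46 to 0.72). COX7B was at 0.41 and 0.49, the highest of the complex in MDA-MB-231, and COX6A1 at 0.52 was next to COX6C in SUM159. After COX8A, COX6B1 was the lowest nuclear gene of the complex in MDA-MB-231, at -0.34. In SUM159 the lowest nuclear ones were COX6B2, at -0.47 (-1.47 to 0.53), and COX7C, at -0.18. COX5A and COX5B, which sit on the matrix side and the zinc site of the enzyme, were between -0.21 and 0.07 in both lines.
Of the paired isoforms, the widely expressed one carried nearly all counts. COX6A2, COX7A1 and COX8C, the forms known from muscle or testis, had 0 to 9 counts in any library. COX7B2 had 41 and 30 counts in MDA-MB-231 and 0 in both SUM159 libraries, which puts it at least 9.85-fold lower in SUM159 DMSO, taken against a floor of 3 counts per library. COX6B2 had 2 and 6 counts in MDA-MB-231 and 20 and 18 in SUM159. COX7A2 was 49.91% of the summed counts of COX7A1, COX7A2 and COX7A2L in SUM159 DMSO and 60.86% in SUM159 MBZ, and 56.72% and 58.95% in MDA-MB-231.

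In complex V, ATP5MC2 was the gene called lower in both lines. The 3 ATP5MC genes encode the same mature subunit c, which forms the rotor ring of ATP synthase, behind different import sequences. ATP5MC2 (chr12:53632726-53677408, minus strand) had 5416 and 2632 counts in MDA-MB-231, 1.704-fold lower (-0.77, -0.84 to -0.70), and 6148 and 4381 in SUM159, 1.747-fold lower (-0.81, -0.86 to -0.75). It was the only subunit gene called in the same direction in both lines other than NDUFV2 and NDUFA13. This holds for TMM scaling: with total-count scaling it was at -0.50 in each line, short of 1.5-fold, while COX6C, COX7B and ATP5MK were past it on the higher side in both. ATP5MC1 (chr17:48892765-48895871) had 1659 and 1268 counts in MDA-MB-231 (-0.12, -0.22 to -0.01) and 1189 and 2479 in SUM159, 1.674-fold higher (0.74, 0.64 to 0.84). ATP5MC3 had 3943 and 2240 counts in MDA-MB-231 (-0.54) and 2327 and 3785 in SUM159 (0.39). The make-up of the subunit c counts, which does not depend on scaling, differed more with MBZ in SUM159: ATP5MC2 was 63.62% (exact binomial interval 62.65 to 64.58) of the 3 genes with DMSO and 41.16% (40.22 to 42.1) with MBZ, and in MDA-MB-231 49.16% (48.22 to 50.09) and 42.87% (41.62 to 44.12). Summed over the 3 genes, the log2 fold change was -0.57 (-0.62 to -0.53) in MDA-MB-231 and -0.18 (-0.22 to -0.14) in SUM159.

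**Figure D4:**
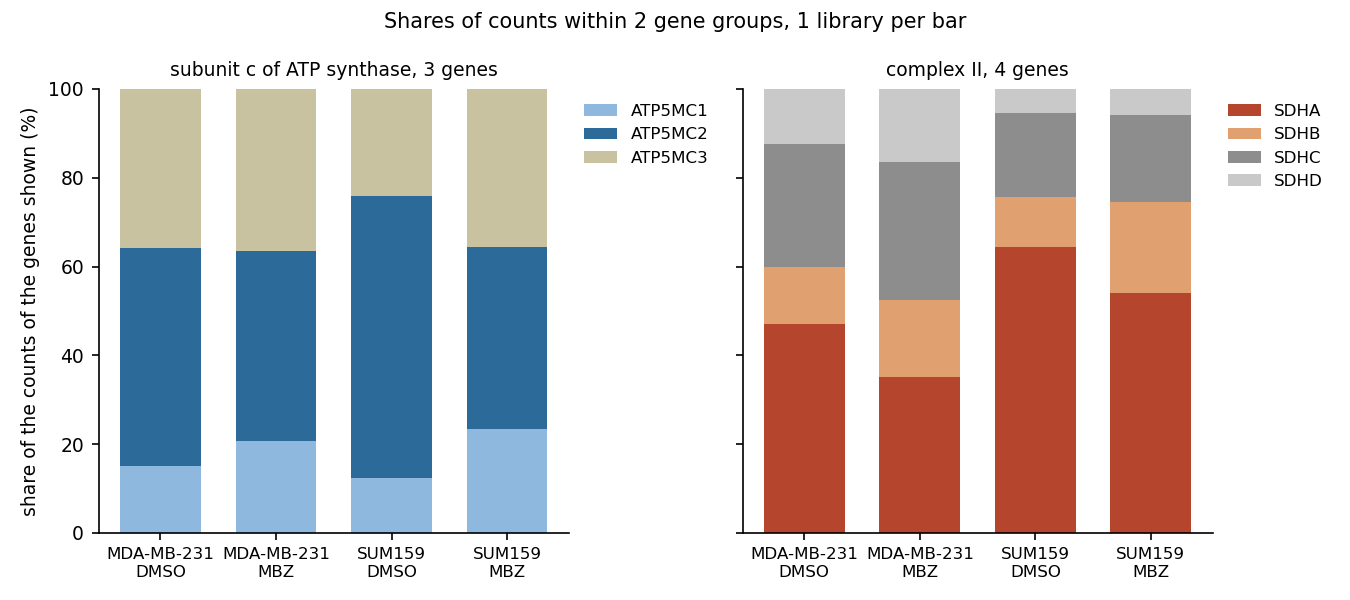
Share of counts in percent within the 3 genes for subunit c of ATP synthase (left) and within the 4 complex II genes (right), 1 library per bar. ATP5MC2 is 63.62% of the subunit c counts in the SUM159 DMSO library and 41.16% in the MBZ library, and SDHA takes a smaller part with MBZ in both lines.

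The other genes of ATP synthase included its most abundant ones. ATP5F1B had 30370 and 17072 counts in MDA-MB-231 (-0.56, -0.59 to -0.53) and 17139 and 24981 in SUM159 (0.23, 0.20 to 0.26), while its partner ATP5F1A, the alpha subunit, was at -0.48 and -0.07. ATP5PO, of the peripheral stalk, was at -0.17 and 0.01 with 317 to 634 counts per library. ATP5F1D, of the central stalk, was lower in both lines, at -0.53 and -0.44, short of 1.5-fold. ATP5MK, a small membrane subunit, was the highest nuclear gene of the complex in both lines, with 2050 and 2297 counts in MDA-MB-231 (0.44, 0.35 to 0.52) and 1012 and 2189 in SUM159, 1.737-fold higher (0.80, 0.69 to 0.91). ATP5PB, of the same stalk as ATP5PO, was second to it in MDA-MB-231, at 0.12, and -0.25 in SUM159. The ATP5MK promoter is shown because it held 3 matches to the ETS core, on both strands. The stretch CTTCCGGAAG reads as a match on each strand, so the matches within it overlap.
ATP5MK promoter, chr10:103396426-103396725, minus strand: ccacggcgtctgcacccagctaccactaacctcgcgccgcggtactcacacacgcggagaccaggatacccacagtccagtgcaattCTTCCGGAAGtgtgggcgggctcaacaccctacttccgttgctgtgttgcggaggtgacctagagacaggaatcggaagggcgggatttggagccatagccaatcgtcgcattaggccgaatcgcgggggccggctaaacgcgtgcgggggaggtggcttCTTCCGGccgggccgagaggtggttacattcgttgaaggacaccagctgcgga

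Set side by side, the lines differed in direction for many subunit genes. Of the 90 genes compared in both, 19 were lower in MDA-MB-231 and higher in SUM159 with both counting intervals excluding 0, and 3 the reverse, NDUFB5, UQCRB and ATP5PB. For all genes these shares were 10.6% and 9.4%. With total-count scaling 13 of these 22 genes had opposite signs in the lines, UQCRB being the only one of the 3. Both lines were higher in 8 genes and lower in 21, the lower ones including 8 mitochondrial mRNAs, where 12.3% and 18.3% of all genes did so. Whether a counting interval excludes 0 depends on the counts of the gene. In MDA-MB-231 the interval held 0 in 5172 of 15142 genes and in 23 of 91 subunit genes, so these shares are not matched for level. The SUM159 log2 fold change was above the MDA-MB-231 one in 61 of 77 nuclear genes, with a median difference of 0.28, against -0.04 over all genes. Whether the lines differ beyond the spread between cultures cannot be tested with 1 library per group.

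**Figure D5:**
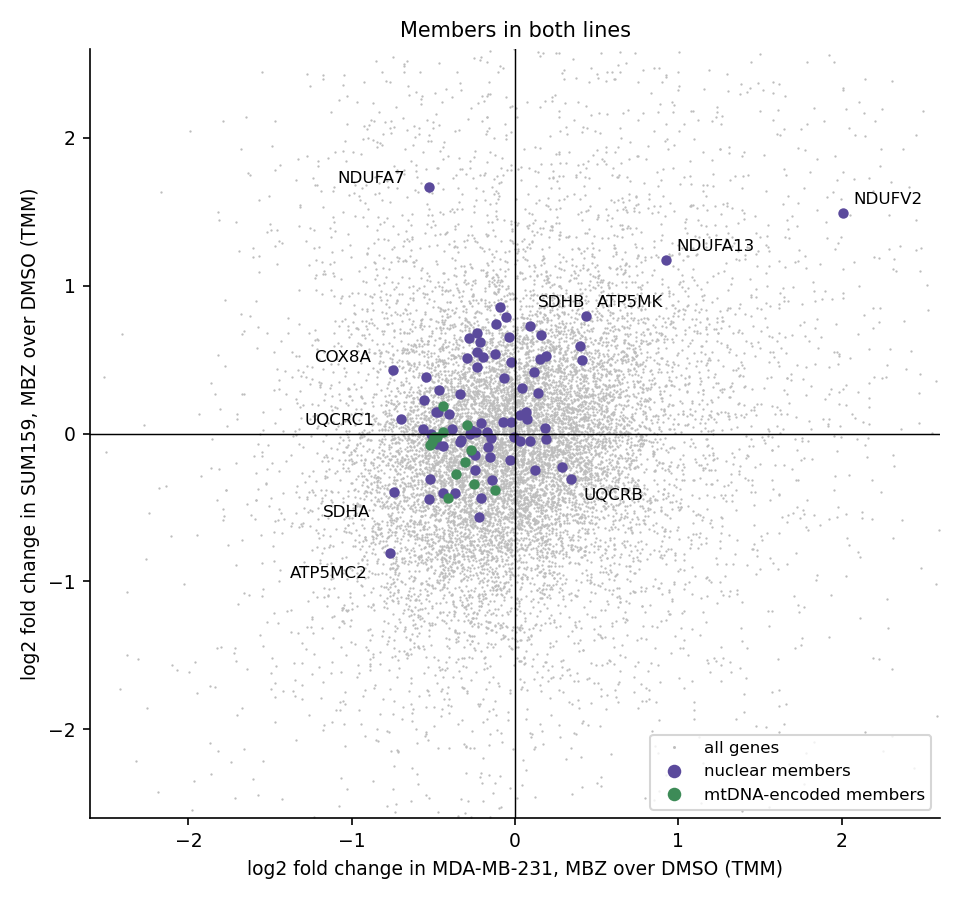
Log2 fold change of MBZ over DMSO (TMM) in MDA-MB-231 (horizontal) and SUM159 (vertical) for all genes compared in both lines (grey) and for the subunit genes (coloured); genes beyond the axes are not drawn. Most nuclear subunit genes lie left of 0 and around or above 0 on the vertical axis, and ATP5MC2 and SDHA lie at the lower left.

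The one test the design allows asks for a change shared by both lines, with the 4 libraries in one model of cell line and treatment. By edgeR's quasi-likelihood test, 0 of the 93 subunit genes tested had a Benjamini-Hochberg adjusted p under 0.05, where 0.00621% of all 16100 genes tested were called higher and 0% lower. At an unadjusted p under 0.05, 1 was higher (NDUFV2) and 1 lower (ATP5MC2), against 3.91% and 3.24% of all genes. ATP5MC2 had a log2 change of -0.75 (SE 0.30) with an unadjusted p of 0.0437 and an adjusted p of 0.685 in that edgeR fit. NDUFV2 had a log2 change of 1.78 (SE 0.63), with 0.0270 and 0.631. The test lost power with spread: in simulated data it called 91% of 200 genes changed 4-fold at a biological coefficient of variation of 0.2, and 13% at 0.4. The estimate in these libraries, 0.323, lies between them, and the power at that value was not simulated. DESeq2, which gave 4 of them no adjusted p, called 0 of the others after adjustment, against 0.301% of all genes higher and 0.404% lower, and 1, which was lower, at an unadjusted p under 0.05, against 2.09% and 3.44%. The labels do not say that the libraries came from separate cultures beyond line and treatment. These p-values thus measure the spread between these 4 libraries alone, and not that between cultures. Once line and treatment are fitted, the error left over reflects how unequally MDA-MB-231 and SUM159 changed with MBZ. A gene that changed in only 1 line, or in opposite directions, therefore has a larger error in this test. The 0 calls do not show that such genes were unchanged within a line.

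Without drug, the lines already differed, in medium as well as in origin. Of the 13 mitochondrial mRNAs, 9 were higher in SUM159 DMSO than in MDA-MB-231 DMSO and 2 were lower with intervals that excluded 0, MT-ND3 at -0.44 (-0.48 to -0.41) and MT-ATP8 at -0.12 (-0.22 to -0.02). The median log2 difference was 0.30, with MT-CO1, at 0.89 (0.88 to 0.90), and MT-ND1, at 0.87 (0.85 to 0.90), the only ones past 1.5-fold. Of all genes compared, 30.5% were higher and 31.1% lower in SUM159 at that size. Among nuclear subunit genes 11 of 80 were higher and 19 lower, with a median of -0.11. Of these, NDUFA4L2 and COX6B2, with 2 and 20 counts each, and COX7B2 and NDUFA7, with 41 and 0 and with 14 and 6, passed the count minimum only through the library in which they were high. COX8A was 2.41-fold lower in SUM159 (-1.27, -1.36 to -1.18), NDUFA3 2.141-fold lower and NDUFS5 1.87-fold lower. UQCRC2, the other way, was 2.106-fold higher (1.07, 1.00 to 1.15), NDUFB9 2.028-fold higher and SDHA 1.723-fold higher. The DMSO library of each line also enters that line's MBZ comparison, so the 2 sets of values share libraries.

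The genes around the subunits were taken from fixed lists. Of the 46 assembly factors compared, 2 were called higher and 2 lower in MDA-MB-231 (4.348% each, median 0.02), where 18.3% and 15.8% of all genes were. In SUM159, 10 were higher (21.74%, near the 21.5% of all genes) and 2 lower (4.348%, against 21.7%), with a median of 0.18. LYRM7, which matures the Rieske protein, had 242 and 440 counts in MDA-MB-231 (1.13), and COX17, a copper chaperone for complex IV, had 358 and 932 in SUM159 (1.06). SDHAF4 was the lowest assembly factor in MDA-MB-231, at -0.77, and COX16 in SUM159, at -0.72. COX20, with 11 and 36 counts, was the highest in SUM159, at 1.39.
All 78 genes for mitochondrial ribosomal proteins were compared. MDA-MB-231 had 2 of them called higher (2.564%) and 6 lower (7.692%, median -0.02), where 18.3% and 15.8% of all genes were. In SUM159, 13 were higher (16.67%, against 21.5% of all genes) and 3 lower (3.846%, against 21.7%), with a median of 0.21. MRPL37 was the lowest in MDA-MB-231, at -0.76, and MRPL45 in SUM159, at -0.77. MRPS24, with 7 and 33 counts, passed the count minimum in MDA-MB-231 through its MBZ library alone and is 1 of the 2 called higher there, at 2.49. MRPL53, with 18 and 56 counts, was the highest in SUM159, at 1.32.

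Genes that transcribe, process and copy the mitochondrial genome differed among themselves. Of 27, MDA-MB-231 had 5 called higher and 1 lower (median 0.16), and 4 were higher and 4 lower in SUM159 (median 0.08). These are 18.52% and 3.704%, and 14.81% in each direction. Over all genes 18.3% and 15.8% were called higher and lower in MDA-MB-231, and 21.5% and 21.7% in SUM159. SLIRP and LRPPRC, whose proteins bind each other and stabilise mitochondrial mRNAs, differed in opposite directions in SUM159: SLIRP had 249 and 812 counts (1.39), and LRPPRC had 3622 and 2353 (-0.94). In MDA-MB-231, SLIRP had 732 and 975 counts (0.69) and LRPPRC 3298 and 2623 (-0.06). MTERF2 was the lowest of the list in SUM159, at -1.30, but 0.79 in MDA-MB-231, where TFB2M, a transcription factor of the mitochondrial polymerase, was the highest, also at 0.79. POLG, the mitochondrial DNA polymerase, was the lowest in MDA-MB-231, at -0.61. FASTKD4 was not matched by name.
Of 11 nuclear regulators, 1 was higher and 1 lower in MDA-MB-231, and 2 were higher (18.18%) and 3 lower (27.27%) in SUM159, to be read against the same shares of all genes. PPARGC1A, a coactivator known to drive respiratory genes, had 170 and 201 counts in MDA-MB-231 (0.51) and 210 and 22 in SUM159 (-3.56), the lowest of the list there. NRF1 was at -0.38 and 0.94, the highest in SUM159. TFEB was the lowest in MDA-MB-231, at -1.31, and GABPB2 the highest, at 0.65.

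The citric acid cycle feeds electrons to the chain. None of its 13 genes was called higher. In MDA-MB-231 1 was lower (median -0.44) and in SUM159 2 were lower (median -0.13), where 15.8% and 21.7% of all genes were. CS, citrate synthase, had 5948 and 3148 counts in MDA-MB-231 (-0.65) and 6415 and 5171 in SUM159 (-0.63), and SUCLG2 was the lowest in SUM159, also at -0.63. IDH3A was the highest in MDA-MB-231, at 0.26, and IDH3B in SUM159, at 0.33. Of the subunits and carriers not covered by the symbol patterns, 5 were compared, with none called in MDA-MB-231 and 3 higher in SUM159, where 21.5% of all genes were. CYCS, cytochrome c, had 3288 and 3586 counts in MDA-MB-231 (0.40) and 1314 and 3520 in SUM159 (1.11). ATP5IF1, the inhibitor of ATP synthase, had 836 and 2241 counts in SUM159, also 1.11, and 0.30 in MDA-MB-231, while CYC1 of complex III was the lowest there, at -0.39, and COX4I1 in SUM159, at -0.08.

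Promoter windows of 300 bases were found for 68 of the 86 nuclear genes. The NRF1 letters were in 17 of them, and in 8.618% of the 15306 promoters of protein-coding genes, while the ETS core was in 27.94% against 14.41%. YY1 letters were in 16.18% against 3.972%, and the TATA box in 10.29% against 9.617%. Of the 13 with a window among the genes called higher in SUM159, 4 held the ETS core, 4 YY1 and 1 NRF1. A match describes the letters and is no evidence of binding.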

How the data were processed

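Poly(A)-selected RNA of the 4 libraries was sequenced as paired reads, and the deposited counts are raw reads per gene: per the labels and the study's methods, the authors aligned them to GRCh38 with STAR 2.5 and counted them with HTSeq 0.6.1 in union mode, which drops reads that touch 2 genes. Their edgeR was version 3.16.5. The annotation release and strand setting are not given in the sources used here, so antisense overlaps cannot be told apart. The table holds counts only, and 0 sample columns were left unmapped.

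Gene names, positions and lengths came from GENCODE 44, which matched 58207 of 58735 rows. Promoters came from RefSeq. The genes and lists were chosen with earlier results of these data known. Log2 fold changes used edgeR 4.0.16 (R 4.3.3) with TMM over the 2 libraries of a line and a prior count of 0.125. Intervals came from scipy as Clopper-Pearson intervals at 95%, for counting error only. A count of 0 allows up to 3 counts, or 0.1205 to 0.175 CPM. RPKM used total counts and the length of the canonical transcript. The test over both lines was edgeR's quasi-likelihood fit of line and treatment after filterByExpr, with Benjamini-Hochberg adjustment, and DESeq2 1.42.0 was an alternative. Tested on simulated data for the MDA-MB-231 comparison, 95.4% of the intervals of 15126 genes covered the simulated fold change.

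The text names the 13 mitochondrial mRNAs, core subunits and isoforms by a fixed list, the extreme nuclear genes of each complex in each line, and the extremes of each other list. Genes called in a line, genes that overlap a neighbour and a few partner genes were named after their values were seen. Values of 2 single genes of these lists are not reported here. Alternatives were scaling (total counts, DESeq2 size factors, TMM over 4 libraries or without mitochondrial genes), prior count, count minimum, fold threshold and the model.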

Additional observations from a re-analysis of the deposited data

Results flagged for a closer look

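For 22 subunit genes and the 2 mitochondrial ribosomal RNAs, the lines differed in direction after MBZ, with both counting intervals excluding 0. Of all genes compared in both lines, 10.6% were higher in SUM159 and lower in MDA-MB-231 by this rule, and 9.4% the reverse. With 1 library per group these differences were not tested. Among the 22 subunit genes, 13 still had opposite signs with total-count scaling. The values are given as the SUM159 log2 fold change minus that of MDA-MB-231.

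In complex I the difference was 0.63 for MT-ND4L, 0.35 for MT-ND5, 0.93 for NDUFA3, 0.61 for NDUFB10, 0.78 for NDUFB2, 0.76 for NDUFB7, 0.61 for NDUFS5, 0.83 for NDUFS6 and 0.54 for NDUFS8, and -0.51 for NDUFB5. In complex III it was 0.68 for UQCR10, 0.80 for UQCRC1, 0.15 for UQCRH and 0.91 for UQCRQ, and -0.65 for UQCRB. In complex IV it was 0.72 for COX6A1 and 1.18 for COX8A. In complex V it was 0.79 for ATP5F1B, 0.86 for ATP5MC1, 0.93 for ATP5MC3 and 0.81 for ATP5MF, and -0.37 for ATP5PB. The mitochondrial ribosomal RNAs differed by -0.91 for MT-RNR1 and -1.05 for MT-RNR2.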

How the results depend on the processing

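With scaling by total counts the median log2 fold change of the mitochondrial mRNAs was -0.14 in MDA-MB-231 and 0.23 in SUM159, that of the nuclear genes 0.078 and 0.40, and the median mitochondrial difference between the DMSO libraries 0.24. Nuclear genes at least 1.5-fold higher then numbered 6 and 30, and lower ones 0 in each line, where 29.1% and 32.8% of all genes were higher and 7.57% and 12.8% lower. DESeq2 size factors gave a mitochondrial median of -0.46 and 7 lower nuclear genes in MDA-MB-231 (17.8% of all genes). With every gene that had a count, 6 were higher in MDA-MB-231 (34.4% of all genes) and 3 lower in SUM159 (23.5%). A mean of at least 100 counts left 0 higher in MDA-MB-231 (10.3%). At 2-fold, 1 and 4 were higher (9.05% and 12.7%) and 0 and 0 lower (5.14% and 10.7%). Without the ribosomal RNAs in the total, the mitochondrial share was 2.358%, 2.216%, 3.178% and 3.384%.

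The test over both lines called 0 subunit genes after adjustment under every alternative run, where edgeR with every gene that had a count called 0.474% of all genes higher and 0.449% lower. TMM over all 4 libraries, TMM without the mitochondrial genes and a prior count of 2 kept every median and count of calls within its limits. Depth limits genes with few counts, such as NDUFV2, NDUFA7 and NDUFA4L2. No paired analysis by replicate was possible because the groups share only 1 replicate number, and no replicate could be left out. The test over both lines holds the cell line as a term. Without that term 0 subunit genes were called, and also 0 of all 16100 genes tested.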
